A study of Mus musculus with 13 samples.

Results

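Claudins are membrane proteins of the tight junction, the belt that joins neighbouring epithelial cells near their luminal face. Some claudins seal the space between cells, while others form channels through it that let small ions and water pass, so the mix of claudins in an epithelium sets how tight or leaky it is. In the intestine that mix differs between crypt and villus and along the length of the gut. The genes described here are 10 claudins of intestinal and other epithelia: Cldn1, Cldn2, Cldn3, Cldn4, Cldn6, Cldn7, Cldn8, Cldn12, Cldn15 and Cldn23. Each was read on the probe set whose only gene symbol it is, and each had 1 such probe set, so 10 probe sets of the 23410 with a gene symbol were followed, covering 10 of 19938 genes.

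All samples came from the small intestine of Apc mutant mice that were crossed with transgenic mice expressing FPs. They fall into adenomas (n = 3), normal epithelium with high FP expression (FP-high, n = 4) and normal epithelium with low FP expression (FP-low, n = 6), the normal samples lying beside adenomas. The Apc mutation and the FP transgenes are common to all 3 groups, so no sample is wild type. The Apc allele, what FP stands for, the promoter that drives it, ages and the animal behind each array are not given in the labels or design text. Crypts were picked with fine glass capillaries, RNA was taken from isolated crypts and amplified, and 1 array was run per sample. P-values therefore reflect only how these samples vary, which may be technical, and precision is limited by the number of arrays. Levels are log2 array values, and since probe sets differ in response they are compared between groups and never between genes.

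FP-high replicate 1, as labelled, was unlike the rest before any claudin was read. The SD of its values was 1.21, against 1.89 to 2.10 on the other 12 arrays, and its median correlation with them was 0.762, whereas pairs among those 12 correlated at 0.920 to 0.985. It was the lowest of all 13 arrays for 5 of the 10 claudins, namely Cldn2, Cldn3, Cldn4, Cldn7 and Cldn12. The epithelial label was checked on 13 markers of epithelium, whose mean per array was 8.20 to 8.71 in adenomas, 8.23 to 8.90 in FP-high replicates 2 to 4, 6.26 in FP-high replicate 1 and 8.04 to 8.79 in FP-low samples. Epcam, which encodes a cell adhesion protein that binds claudin-7, was at 9.24, 9.26 and 9.33 in adenomas, at 7.58, 9.24, 9.15 and 8.85 in FP-high samples and at 9.03 to 9.58 in FP-low samples. Where leaving that array out turned a difference below or moved it by a large factor, the value without it is given too.

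None of the 10 claudins passed the threshold of an adjusted p under 0.05 in any comparison (limma, with Benjamini-Hochberg adjustment over all 23410 probe sets). For adenomas against normal epithelium, taken as the mean of both normal group means, 0 of 10 were called and 0.91% of all tested probe sets were. Adenomas against FP-high samples gave 0 of 10 beside 0.765% of all probe sets, and adenomas against FP-low samples gave 0 of 10 beside 0.551%. FP-high against FP-low samples gave 0 of 10 beside 0% of all probe sets. At an unadjusted p under 0.05 the comparison of adenomas with normal epithelium had 2 of 10 claudins, Cldn2 and Cldn15, where 10.6% of all probe sets had one. The same claudins were the 2 of 10 for adenomas against FP-high samples, with a background of 15.7%. Cldn15 was the 1 of 10 for adenomas against FP-low samples, with a background of 7.45%, and Cldn2 the 1 of 10 for FP-high against FP-low samples, with a background of 12.7%. These comparisons share arrays, and the 4 sets of values are given side by side and not as separate evidence.

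As a group the claudins lay on both sides of zero. Against normal epithelium, adenomas had 4 claudins higher in mean and 6 lower, with a median log2 difference of -0.10 against -0.09 over all tested probe sets. Against FP-high samples the split was 5 and 5, with a median of 0.02 against -0.11 over all probe sets, and without FP-high replicate 1 the median turned to -0.15 against -0.08. Against FP-low samples the split was also 5 and 5, with -0.08 against -0.06. FP-high samples had 4 claudins above FP-low samples and 6 below, with a median of -0.10 against 0.05 over all probe sets, and without FP-high replicate 1 that median was 0.10 against 0.02.

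**Figure D1:**
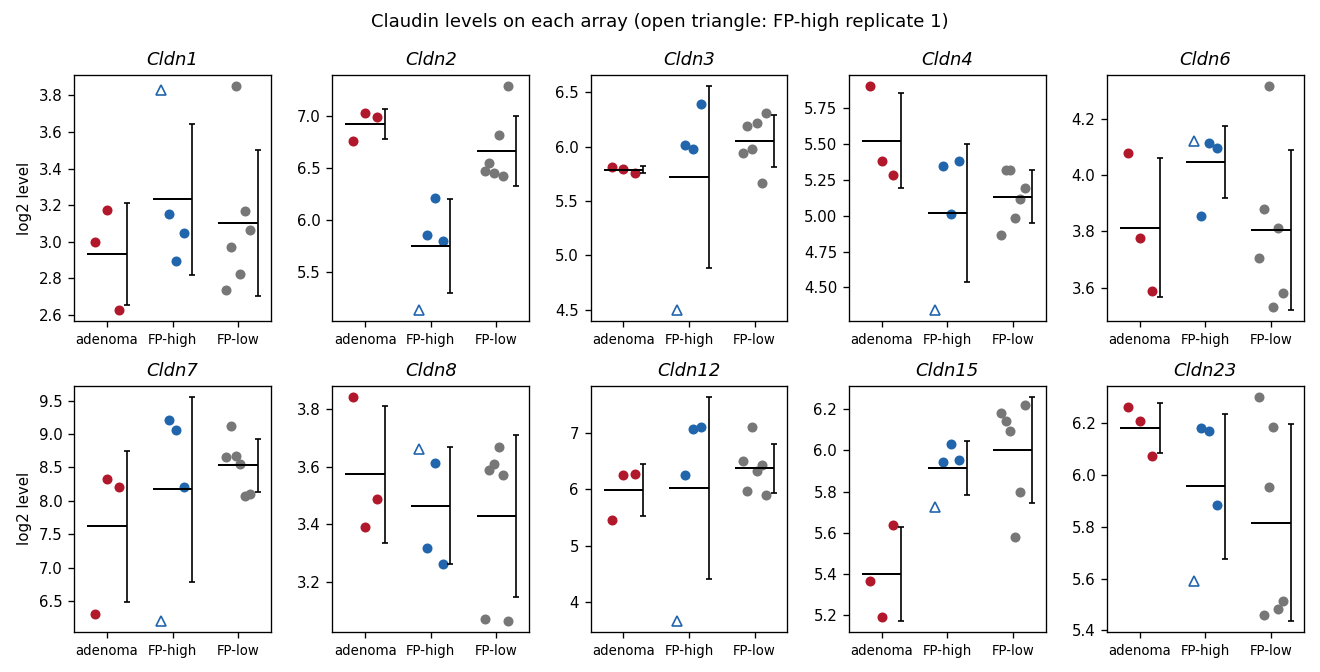
Log2 level (y axis) of each of the 10 claudins on every array, by group (x axis: adenoma n = 3, FP-high n = 4, FP-low n = 6). Points are arrays, the open triangle is FP-high replicate 1, black lines are group means and error bars are SDs. Cldn2 lies at 5.14 to 6.21 in FP-high samples, below every adenoma and every FP-low sample, and the triangle is the lowest point for Cldn2, Cldn3, Cldn4, Cldn7 and Cldn12.

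Cldn2 and Cldn15 encode the channel-forming claudins of the small intestine. Claudin-2 forms a channel for small cations and water and is found in leaky epithelia such as the crypt, and claudin-15 forms a sodium-permeable channel whose loss in mice impairs sodium-dependent uptake of nutrients. They were the claudins with an unadjusted p under 0.05 (limma) in some comparison. Neither was called, and their number was near the background given above. The 250 bases before their transcription starts are shown here, from RefSeq with build GRCm38.p6. The Cldn2 window is chrX:139800558-139800807 and the Cldn15 window is chr5:136967619-136967868, both on the plus strand and printed 5′ to 3′ in lower case with motif matches in capitals.
Cldn2: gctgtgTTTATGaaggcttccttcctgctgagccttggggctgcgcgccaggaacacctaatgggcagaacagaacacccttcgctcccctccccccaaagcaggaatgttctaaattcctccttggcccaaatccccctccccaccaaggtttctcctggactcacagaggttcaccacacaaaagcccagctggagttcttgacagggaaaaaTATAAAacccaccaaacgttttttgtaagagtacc
Cldn15: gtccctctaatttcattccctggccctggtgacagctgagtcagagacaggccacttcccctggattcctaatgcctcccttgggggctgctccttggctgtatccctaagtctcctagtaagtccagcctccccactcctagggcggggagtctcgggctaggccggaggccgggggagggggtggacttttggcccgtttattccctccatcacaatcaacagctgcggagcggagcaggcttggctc
Both strands were searched for TATAAA, the core promoter box, for TTTATG, bound by CDX factors, for CTTTGA or CTTTGT, bound by TCF/LEF factors, for AGATAA or TGATAA, bound by GATA factors, and for CAGGTG, an E-box bound by Snail factors. The Cldn2 window holds TTTATG beginning 244 bases before the start, a motif held by 10.8% of 32851 such windows, and TATAAA beginning 35 bases before it, held by 12.4%. None of the 5 motifs has its letters in the Cldn15 window. Windows of Cldn1, Cldn4, Cldn6 and Cldn7 also held matches and are not printed. The other motifs occurred in 27.6% (TCF/LEF), 16.6% (GATA) and 17.2% (Snail) of windows, and a match is a description of the letters only.

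Cldn2 was lowest in FP-high normal epithelium. Its log2 level was 6.76, 7.03 and 6.98 in adenomas, 5.14, 5.86, 6.21 and 5.80 in FP-high samples, and 6.42 at the lowest, 6.51 at the median and 7.29 at the highest in FP-low samples. All 4 FP-high samples thus lay below all 3 adenomas and all 6 FP-low samples, while adenomas lay within the FP-low range. Means were 6.92 ± 0.14 (SD, n = 3) in adenomas, 5.75 ± 0.45 (n = 4) in FP-high samples and 6.66 ± 0.34 (n = 6) in FP-low samples.

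Adenomas exceeded FP-high samples in Cldn2 by 1.17 ± 0.26 on the log2 scale (SE), which is 2.25-fold, with a 95% interval of 0.61 to 1.73 and an adjusted p of 0.062 (limma). Groups that do not overlap in that direction were found for 6.74% of all tested probe sets in this comparison. FP-high samples differed from FP-low samples by -0.91 ± 0.22, or 0.531-fold, with an interval of -1.39 to -0.44 and an adjusted p of 0.211 (limma). Groups without overlap in that direction made up 1.51% of all probe sets, and unadjusted p was 0.0012. Adenomas and FP-low samples differed by 0.26 ± 0.24, with an interval of -0.26 to 0.78 (adjusted p = 0.945, limma). Against the average of both normal groups the difference was 0.71 ± 0.22 (adjusted p = 0.238, limma).

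The Cldn2 difference between adenomas and FP-high samples lay close to the threshold, and some settings put it past. With arrays weighted by quality it was 1.03 ± 0.20 (adjusted p = 0.018, limma), and adjusted p was 0.033 without FP-high replicate 3 and 0.042 without FP-low replicate 6. Leaving out FP-high replicate 1 gave 0.97 ± 0.22 (adjusted p = 0.063, limma), with the replicate number as a block 1.22 ± 0.23 (adjusted p = 0.113), and with only the arrays of these groups in the fit the adjusted p was 0.274. The direction was the same in all of these. FP-high samples without replicate 1 differed from FP-low samples by -0.71 ± 0.19 (adjusted p = 0.304, limma).

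Cldn2 lies on the X chromosome, and the groups were not alike in sex-linked RNA. Xist, the RNA that silences an X chromosome in female cells, was at 9.71, 8.88 and 8.98 in adenomas, at 8.64 in FP-high replicate 4 and at 8.74 in FP-low replicate 6, and at 2.34 to 3.61 in the other 8 arrays. Cldn2 in the normal arrays high in Xist was 5.80 (FP-high replicate 4) and 7.29 (FP-low replicate 6), the second being the highest of all 13 arrays. With 1 array a side, a gap between FP-high and FP-low samples among arrays high in Xist was not tested. Without those 2 normal arrays FP-high samples differed from FP-low samples by -0.80 ± 0.22 (adjusted p = 0.368, limma), an alternative added after the data had been seen. Eif2s3y, a gene of the Y chromosome, was at 2.03, 2.22 and 2.01 in adenomas and at 2.25 and 2.07 in those 2 normal arrays. In the other 8 arrays Eif2s3y was at 4.43 to 6.87. Apart from those 2 normal arrays, tumour and high Xist cannot be told apart. That limit holds for every gene compared between adenomas and normal epithelium, and not only for Cldn2.

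Some marker lists of other cell types lay on 1 side of zero in FP-high against FP-low samples, though their array means overlapped between these groups. All 12 enterocyte markers averaged higher in FP-high samples (median log2 difference 0.81, or 1.43 without FP-high replicate 1), and 0 were called. Their mean per array was 7.70 to 9.74 in FP-high replicates 2 to 4, 6.50 in replicate 1 and 6.04 to 8.38 in FP-low samples. All 7 Paneth cell markers and all 8 stem cell markers averaged lower in FP-high samples, at medians of -1.29 and -0.45, or -0.36 and -0.18 without FP-high replicate 1, again with 0 called. Paneth markers averaged 9.64 to 10.9 in FP-high replicates 2 to 4, 7.02 in replicate 1 and 9.91 to 11.1 in FP-low samples. Stem markers averaged 6.05 to 6.47 in FP-high replicates 2 to 4, 4.86 in replicate 1 and 6.19 to 6.56 in FP-low samples. All 8 T cell markers averaged higher in FP-high samples, at a median of 0.32, or 0.42 without FP-high replicate 1, with 0 called. Their mean per array was 4.94 to 6.09 in FP-high replicates 2 to 4, 4.87 in replicate 1 and 4.17 to 5.29 in FP-low samples. The part of these in the Cldn2 values was not tested, and in such bulk samples fewer cells of a type and less RNA per cell cannot be told apart.

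Cldn15 averaged lowest in adenomas. Its log2 level was 5.37, 5.19 and 5.64 in adenomas, 5.72, 5.95, 6.03 and 5.96 in FP-high samples, and in FP-low samples 5.58 at the lowest, 6.12 at the median and 6.22 at the highest. All adenomas lay below all FP-high samples, and adenoma replicate 3 lay above the lowest FP-low sample, replicate 4. Means were 5.40 ± 0.23 (SD, n = 3) in adenomas, 5.91 ± 0.13 (n = 4) in FP-high samples and 6.00 ± 0.26 (n = 6) in FP-low samples.

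Against normal epithelium the Cldn15 difference was -0.56 ± 0.16, or 0.678-fold, with a 95% interval of -0.91 to -0.21, an unadjusted p of 0.0040 and an adjusted p of 0.174 (limma). It was -0.61 ± 0.17 against FP-low samples (adjusted p = 0.220) and -0.52 ± 0.19 against FP-high samples (adjusted p = 0.244), where groups without overlap in that direction made up 10.4% of all probe sets. FP-high and FP-low samples differed by -0.09 ± 0.16 (adjusted p = 0.761), or -0.03 without FP-high replicate 1, a direction that turned under quantile normalisation (0.30) and under equal scaling of the arrays (0.14). Weighting arrays by quality put the comparisons with normal epithelium (-0.62 ± 0.14, adjusted p = 0.024) and with FP-low samples (-0.64 ± 0.14, adjusted p = 0.029) past the threshold, and without FP-high replicate 1 the adjusted p was 0.073 and 0.086. In adenomas, then, the means of these channel genes lay on opposite sides of the average of both normal groups, Cldn2 above and Cldn15 below. For Cldn2 the gap was to FP-high samples, while adenomas lay within the FP-low range, at a difference of 0.26 ± 0.24 from FP-low samples. Neither difference from that average passed the threshold in the fit of all 13 arrays with equal weights.

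**Figure D2:**
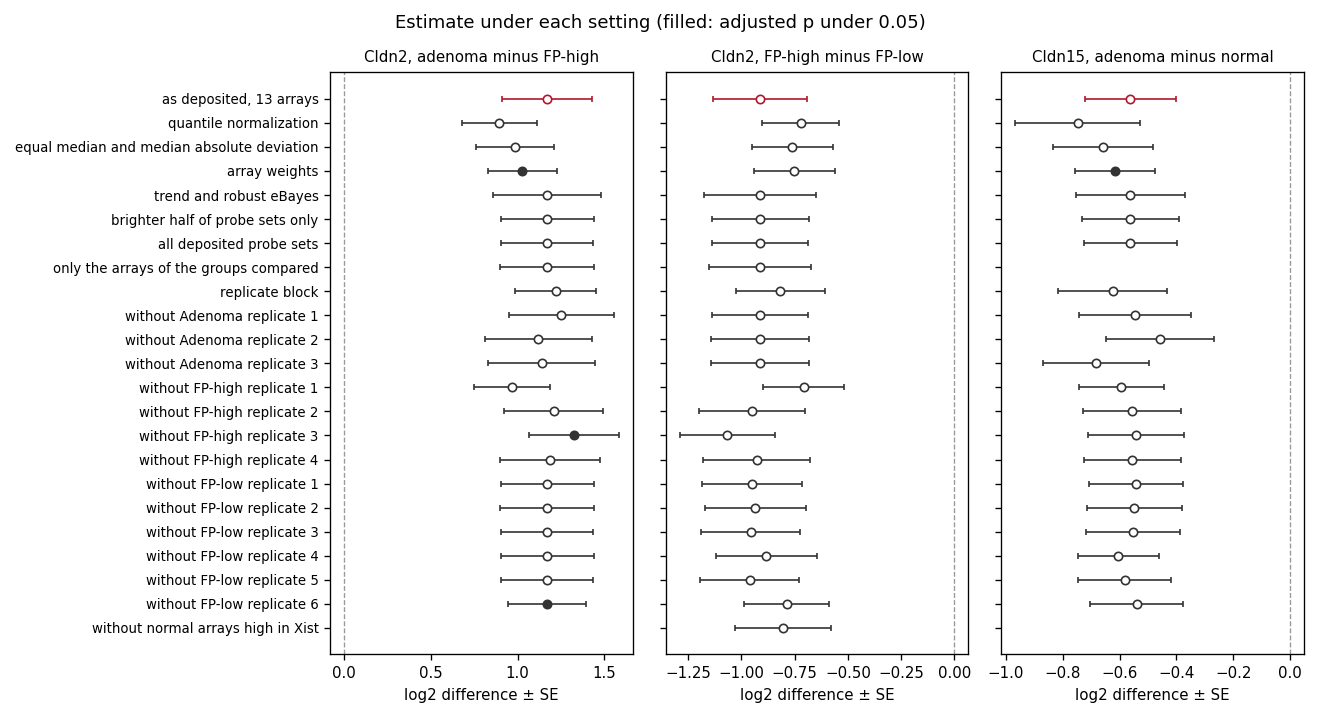
Log2 difference with its SE (x axis) for Cldn2 in adenoma minus FP-high, Cldn2 in FP-high minus FP-low and Cldn15 in adenoma minus normal epithelium, under each setting (y axis). Red is the fit of the deposited values on 13 arrays, and filled points have an adjusted p under 0.05. Every point keeps its side of zero, at 0.90 to 1.32 for the first, -1.07 to -0.71 for the second and negative throughout for Cldn15, and few points are filled.

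Cldn1, Cldn3, Cldn4, Cldn7 and Cldn8 are grouped here as sealing claudins, and their effect on the passage of ions was not measured. Cldn4 had the largest positive mean difference among them in adenomas. Its level was 5.91, 5.38 and 5.29 in adenomas, 4.34, 5.35, 5.01 and 5.38 in FP-high samples, and 4.86, 5.15 and 5.32 at the lowest, median and highest in FP-low samples. Adenoma replicate 1 was the highest of all arrays, and the other two adenomas lay close to the highest normal arrays, so the groups overlap. The difference from normal epithelium was 0.45 ± 0.22, with a 95% interval of -0.02 to 0.91 (adjusted p = 0.489, limma), and it was 0.33 ± 0.16 without FP-high replicate 1 and 0.26 without adenoma replicate 1.

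Cldn7, whose protein binds EpCAM along the lateral membrane and holds up the intestinal lining in mice, had the widest spread of the sealing genes, with an SD of 1.13 in adenomas and 1.38 in FP-high samples. It was at 6.31, 8.33 and 8.21 in adenomas, 6.20, 9.21, 9.06 and 8.21 in FP-high samples, and 8.07, 8.61 and 9.12 at the lowest, median and highest in FP-low samples. Adenoma replicate 1 and FP-high replicate 1 were low, and all other arrays were at 8.07 or above. The mean difference from normal epithelium was -0.73 ± 0.57 (interval -1.96 to 0.49, adjusted p = 0.624, limma). It was -1.06 ± 0.40 without FP-high replicate 1 and -0.08 ± 0.59 without adenoma replicate 1, so that 1 array decides its size. Epcam on adenoma replicate 1 was at 9.24 and on the other adenomas at 9.26 and 9.33.

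Cldn3, a widely expressed sealing claudin of the gut, was at 5.81, 5.80 and 5.76 in adenomas, 4.50, 6.02, 5.98 and 6.39 in FP-high samples, and 5.67, 6.09 and 6.31 at the lowest, median and highest in FP-low samples. The adenomas were close together and lay within the normal range. Their difference from normal epithelium was -0.10 ± 0.30 (interval -0.75 to 0.56, adjusted p = 0.891, limma), and -0.30 ± 0.14 (adjusted p = 0.314) without FP-high replicate 1. Against FP-high samples the difference was 0.07, and it changed sign without FP-high replicate 1, to -0.34, and under quantile normalisation, to -0.0017.

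Cldn1 and Cldn8 read in the dim part of the array. Cldn1, which is essential for the skin barrier in mice, had a mean at percentile 14.1 of tested probe sets, and Cldn8, which acts with claudin-4 in the kidney collecting duct of mice, at percentile 20.8. Cldn1 was at 3.00, 3.17 and 2.63 in adenomas, 3.83, 3.15, 2.90 and 3.05 in FP-high samples and 2.74 to 3.85 in FP-low samples. Cldn8 was at 3.84, 3.39 and 3.49 in adenomas, 3.66, 3.32, 3.61 and 3.26 in FP-high samples and 3.06 to 3.67 in FP-low samples. The groups overlap for both genes, with differences from normal epithelium of -0.23 ± 0.24 for Cldn1 (adjusted p = 0.688), or -0.13 ± 0.21 without FP-high replicate 1, and 0.13 ± 0.18 for Cldn8 (adjusted p = 0.755, both limma). Detection calls were not used here, so whether these probe sets were above background is not known.

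**Figure D3:**
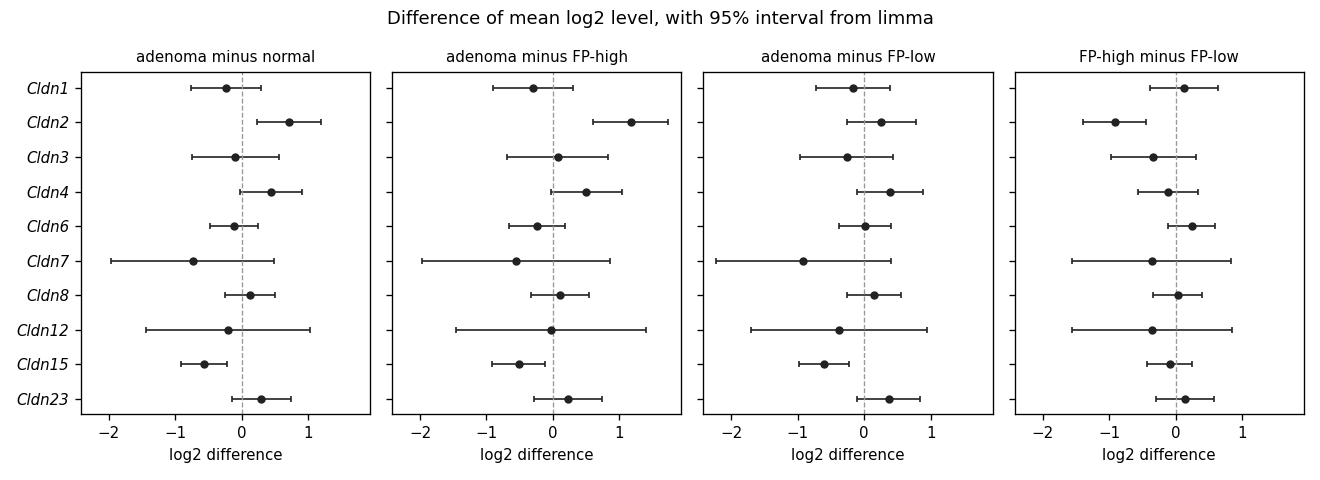
Difference of mean log2 level (x axis) with its 95% interval from limma for each claudin (y axis), in adenoma minus normal, adenoma minus FP-high, adenoma minus FP-low and FP-high minus FP-low. The dashed line is zero. Intervals of Cldn2 and Cldn15 clear zero before adjustment in 3 panels each, and those of Cldn7 and Cldn12 are the widest.

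The remaining claudins have other or less settled roles. Cldn12, which takes part in calcium passage between intestinal cells in mice, was at 5.45, 6.26 and 6.26 in adenomas, 3.67, 6.25, 7.06 and 7.11 in FP-high samples, and 5.90, 6.38 and 7.10 at the lowest, median and highest in FP-low samples. FP-high replicate 1 lay far below every other array, and adenoma replicate 1 was the next lowest. The difference from normal epithelium was -0.21 ± 0.57 (adjusted p = 0.876), then -0.60 ± 0.28 (adjusted p = 0.303) without FP-high replicate 1 and 0.06 without adenoma replicate 1 (limma). FP-high against FP-low samples likewise gave -0.35 on all arrays and 0.44 once FP-high replicate 1 was left out.

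Cldn23, a claudin of the differentiated luminal epithelium, had a narrow spread in adenomas. It was at 6.26, 6.21 and 6.07 there, at 5.59, 6.18, 6.17 and 5.88 in FP-high samples, and at 5.46, 5.73 and 6.30 at the lowest, median and highest in FP-low samples. All adenomas lay in the upper part of the normal range, which reached 6.30, so the groups overlap. The difference was 0.30 ± 0.21 from normal epithelium (interval -0.15 to 0.74, adjusted p = 0.602) and 0.37 ± 0.22 from FP-low samples (adjusted p = 0.820, both limma).

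Cldn6, a claudin of embryonic epithelia, read dim at percentile 29.5. It was at 4.08, 3.77 and 3.59 in adenomas, at 4.12, 3.86, 4.11 and 4.09 in FP-high samples and at 3.53, 3.76 and 4.32 at the lowest, median and highest in FP-low samples. All groups overlap. FP-high samples exceeded FP-low samples in mean by 0.24 ± 0.16 (adjusted p = 0.456) and adenomas differed from normal epithelium by -0.11 ± 0.17 (adjusted p = 0.774, both limma).

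The other claudin genes gave no call either. Of 22 listed, 14 were measured, and 0 were called in adenomas against normal epithelium. There 3 lay above zero and 11 below, with a median of -0.19 against -0.09 over all tested probe sets. The largest differences were Cldn24 at -0.51 ± 0.27 (adjusted p = 0.519) and Cldn5, a claudin of blood vessel walls, at -0.41 ± 0.15 (adjusted p = 0.331, both limma). Cldn24 read dim, with group means of 2.07 to 2.59, and its signal over background is not known. The 8 endothelial markers, which include Cldn5 itself, were not alike, with 3 above zero, 5 below and 0 called. The endothelial cadherin Cdh5 was at 0.76 ± 0.20 (adjusted p = 0.133) and Emcn, an endothelial surface mucin, at 0.66 ± 0.19 (adjusted p = 0.180, both limma), opposite in sign to Cldn5. Their mean was 4.00 to 4.17 per array in adenomas, 3.93 to 4.47 in FP-high samples and 3.84 to 4.23 in FP-low samples, and their part in the Cldn5 value was not tested. Without FP-high replicate 1, 2 of the 8 were called higher in adenomas. FP-high against FP-low samples gave 0 calls among the other claudins and a median of 0.07, or 0.03 without FP-high replicate 1. Cldn10, which encodes an ion channel claudin, was at 0.41 ± 0.18 (adjusted p = 0.390, limma) with all arrays and at 0.21 ± 0.12 without that array. Cldn10 read dim too, with group means of 2.84 to 3.43.

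The proteins that work with claudins at the junction were read from lists. Of 10 further membrane proteins of the tight junction, all were measured and 0 were called in adenomas against normal epithelium, with 7 above zero, 3 below and a median of 0.35, or 0.25 without FP-high replicate 1. F11r, the junctional adhesion molecule A, differed by 0.71 ± 0.48 (adjusted p = 0.596), or 0.48 without FP-high replicate 1, and Cxadr, an adhesion receptor at the junction, by 0.60 ± 0.27 (adjusted p = 0.467, both limma). Ocln, which encodes occludin, was at 5.09, 5.94 and 5.72 in adenomas, at 3.70, 5.48, 5.96 and 6.25 in FP-high samples and at 5.95 to 6.76 in FP-low samples. FP-high samples differed from FP-low samples in Ocln by -0.91 ± 0.41 (adjusted p = 0.390, limma). FP-high replicate 1 was the lowest array, and without it the difference was -0.36 ± 0.24 (adjusted p = 0.726).

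The list of scaffold and polarity proteins, some of which tie claudins to the actin cortex, had 16 of 19 genes measured and 0 called. In adenomas against normal epithelium 9 were above zero and 7 below, with a median of 0.11 that became -0.01 without FP-high replicate 1. Tjp1, which encodes the scaffold ZO-1, was at 7.77, 7.80 and 7.78 in adenomas, at 4.57, 7.69, 7.72 and 7.50 in FP-high samples and at 7.00 to 8.15 in FP-low samples. Its difference from normal epithelium was 0.62 ± 0.54 (adjusted p = 0.651, limma), or 0.23 ± 0.23 without FP-high replicate 1. That of Patj, a polarity scaffold, was 0.52 ± 0.34 (adjusted p = 0.588, limma), or 0.32 ± 0.23 without that array. In FP-high against FP-low samples Prkci, a polarity kinase, differed by -1.06 ± 0.41 (adjusted p = 0.379, limma), or -0.61 ± 0.33 without it.

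Adherens junction and desmosome genes, the belts below the tight junction, had all 17 measured and 0 called. In adenomas against normal epithelium 15 lay above zero and 2 below, with a median of 0.45, or 0.20 without FP-high replicate 1. The desmosomal cadherins Dsc2 and Dsg2 differed by 1.09 ± 0.56 (adjusted p = 0.518) and 0.93 ± 0.50 (adjusted p = 0.525, both limma), or 0.67 ± 0.17 and 0.57 ± 0.15 without that array. FP-high against FP-low samples had a median of -0.47 that became -0.01 without FP-high replicate 1. Cdh1, which encodes E-cadherin, was at 5.15 on that array and at 8.53 to 9.34 on the other FP-high arrays, against 8.77 to 9.50 in FP-low samples.

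EpCAM and its partners, 7 of 8 measured, had 0 called and a median of 0.15 in adenomas against normal epithelium, or 0.081 without FP-high replicate 1. Cd9, a tetraspanin, was at 1.09 ± 0.54 (adjusted p = 0.502) and Spint1, a protease inhibitor, at 0.43 ± 0.38 (adjusted p = 0.653, both limma), or 0.74 and 0.24 without that array. Genes of epithelial ion transport, through which the cell moves the salts that claudin channels let pass between cells, had 14 of 15 measured and 0 called, with 5 above zero, 9 below and a median of -0.13, or -0.23 without FP-high replicate 1. Slc9a3, the apical sodium-proton exchanger, differed by 1.08 ± 0.48 (adjusted p = 0.452) and Slc5a1, the sodium-glucose transporter, by -1.04 ± 0.75 (adjusted p = 0.609, both limma), the second being -1.54 ± 0.40 without that array. In FP-high against FP-low samples 9 of the 14 lay above zero and 5 below, with a median of 0.19, or 0.30 without FP-high replicate 1. The largest differences ran the other way from that median. Kcne3, a potassium channel subunit of the secretory crypt cell, differed by -1.34 ± 0.44 (adjusted p = 0.330) and Cftr, the chloride channel of the same cells, by -1.23 ± 0.55 (adjusted p = 0.390, both limma), or by -0.81 ± 0.32 and -0.42 ± 0.23 without that array. None of these lists gave a call in FP-high against FP-low samples.

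**Figure D4:**
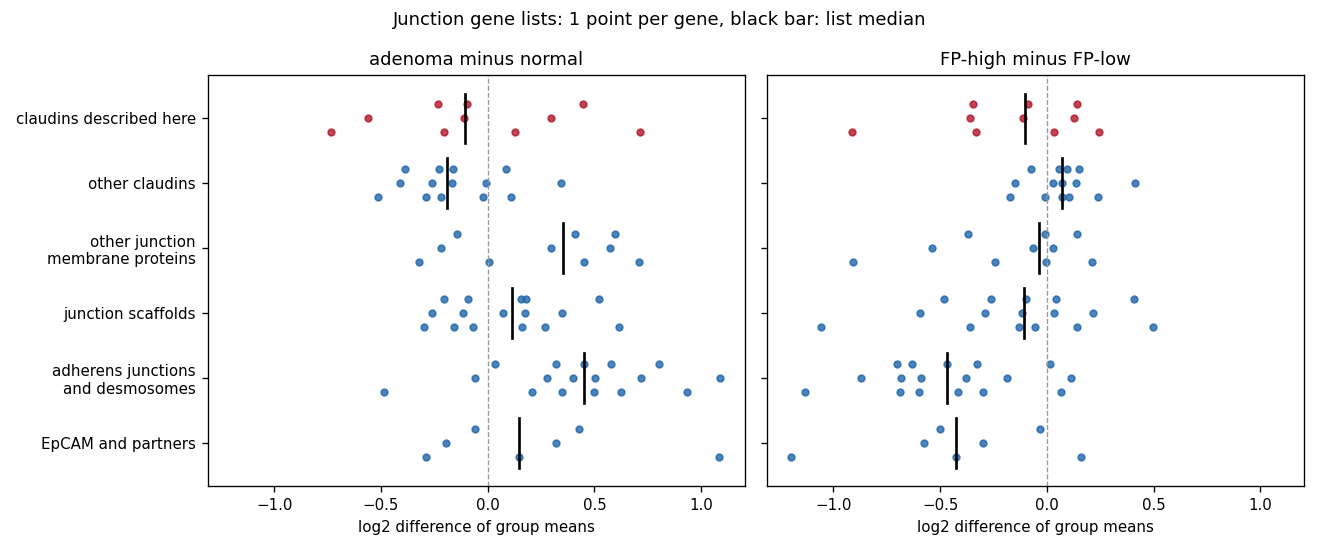
Log2 difference of group means (x axis), 1 point per gene, for the 10 claudins (red) and for the other junction lists (blue), in adenoma minus normal on the left and FP-high minus FP-low on the right. Black bars are list medians. Adherens and desmosome genes have medians of 0.45 and -0.47, while the 10 claudins have -0.10 in both panels. Without FP-high replicate 1, which is included in the plot, these medians are 0.20 and -0.01 for adherens and desmosome genes. For the 10 claudins they are then -0.12 and 0.10.

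For comparison, cell type markers did give calls in adenomas. Among 8 gastric markers, 7 above zero and 1 below, 4 were called higher against normal epithelium. These were Anxa10 at 4.72 ± 0.39, Gkn1 at 1.08 ± 0.16, Tff2 at 1.87 ± 0.35 and Gkn3 at 3.63 ± 0.70. The list averaged 5.91 to 6.36 per array in adenomas, 4.14 to 4.84 in FP-high samples and 4.20 to 4.63 in FP-low samples. In 4 other lists 1 gene was called, and members lay on both sides of zero there too. Of 8 stem cell markers, 6 above zero and 2 below, Lgr5 rose by 1.62 ± 0.33 (adjusted p = 0.042, limma), while Olfm4, named after its value was seen, was at -2.69 ± 0.84 (adjusted p = 0.227, or 0.034 without FP-high replicate 1). Of 8 fibroblast markers, 4 above zero and 4 below with a median of 0.01, Dcn rose by 2.36 ± 0.45 (adjusted p = 0.028, limma). Of 6 mast cell markers, 3 above zero and 3 below, Mcpt2 rose by 3.77 ± 0.30 (adjusted p = 2.5e-05, limma). Of 8 T cell markers, 1 above zero and 7 below, Ptprc, a gene of all white blood cells, rose by 0.79. Of 7 Paneth cell markers, 2 above zero and 5 below with a median of -0.93, 0 were called. Without FP-high replicate 1, 2 of these Paneth markers were called lower in adenomas. The part of all these lists in the claudin values was not tested. Of all 213 probe sets called in that comparison, 97.2% were higher in adenomas, against 81.0% of the calls after quantile normalisation and 89.6% after scaling arrays to equal spread. With array weights 60% of 1153 calls were higher in adenomas, and without FP-high replicate 1 it was 70.5% of 488.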

How the data were processed

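RNA of 13 samples was hybridised to Affymetrix Mouse Gene ST arrays. The authors deposited log2 values for 35556 probe sets, made with Affymetrix Command Console, per the series' design text, and Expression Console and Transcriptome Analysis Console, per the submitters' processing notes. How background was corrected and values normalised and summarised, and with which versions, is not given in the sources used here. That the scale is log2 was judged by the span of the values. Array medians ran from 4.55 to 4.65.

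Gene names came from the platform annotation. Of the probe sets 23410 had a gene symbol and were tested, 21789 had exactly 1, of which 21698 matched RefSeq genes of GRCm38.p6 by Entrez identifier, and 12146 had none. All 13 arrays were fitted in 1 model with limma 3.58.1 in R 4.3.3 (lmFit and eBayes, two-sided), with no filter, no further normalisation and no covariate, and the Benjamini-Hochberg adjustment covered all 23410. The fit was tested on simulated data.

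All 10 claudins were named. From each of the other lists, at most 4 called members by smallest p were named, or, with none called, at most 2 of largest difference. Epcam, Ocln, Tjp1 and Cdh1 were followed on every array, and these were picked, like Xist and Eif2s3y, after values were seen. Genes of like pattern were to be named only for a called claudin, and none was called. Members and lists were chosen with earlier results of these data known. Promoter windows came from the RefSeq table, which held 8 of the 10 claudins and not Cldn8 or Cldn23.

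Replicate numbers are shared between groups. Deviations of same-numbered adenoma and FP-high arrays from their group means correlated at 0.233, 0.102 and 0.220, all over the bound of 0.1. This likeness is read from the data and not from the labels. Xist was at 9.71, 8.88 and 8.98 in adenoma replicates 1 to 3 and at 3.61, 3.05 and 2.65 in FP-high replicates 1 to 3. Same-numbered arrays of these groups thus differed in sex-linked RNA, and whether they share an animal was not tested. The values reported come from the fit without a block, and a replicate block was fitted as an alternative. Where FP-low arrays were involved, the correlations of deviations ran from -0.361 to 0.178. Alternatives were other normalisations, array weights, other variance models, filters, array subsets, the replicate block and leaving out each array.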

Additional observations from a re-analysis of the deposited data

Results flagged for a closer look

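In 20 groups of 4 to 6 arrays, 1 for each claudin in FP-high and in FP-low samples, the gap between an extreme array and its nearest neighbour was set against the range of the group. For Cldn6, FP-high replicate 2 was at 3.86 while the other FP-high arrays were at 4.09 to 4.12, a gap beyond Dixon's critical value. Chance gives such a gap in about 1 of 20 groups, and 1 was found in the 20 tested. Adenomas, with 3 arrays, were not tested for this.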

How the results depend on the processing

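Over 40 values, 10 claudins in 4 comparisons, 828 estimates were made under alternatives, of which 775 kept their direction and side of the threshold, 6 passed the threshold, 0 lost a call and 47 turned direction, 24 of them when an array was left out. At least 1 alternative turned 18 of the 40. The 6 were Cldn2 and Cldn15. Array weights called 2 claudins in adenomas against normal epithelium (Cldn2 0.65, adjusted p = 0.029, and Cldn15 -0.62, adjusted p = 0.024), 1 against FP-low samples (Cldn15 -0.64, adjusted p = 0.029) and 1 against FP-high samples (Cldn2 1.03, adjusted p = 0.018). The others were Cldn2 against FP-high samples without FP-high replicate 3 and without FP-low replicate 6. Over all alternatives, adjusted p for Cldn2 in adenomas against FP-high samples ran from 0.018 to 0.274.

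Leaving out each array in turn gave 0 to 1 called claudins for adenomas against FP-high samples and 0 for the other comparisons. Called probe sets then ran from 92 to 488 for adenomas against normal epithelium, 78 to 370 against FP-low samples, 72 to 281 against FP-high samples, and 0 to 136 for FP-high against FP-low samples. Without FP-high replicate 1 the first of these was 488, without adenoma replicates 1 and 2 it was 99 and 92. Against FP-low samples the same omissions gave 370, 82 and 78, and against FP-high samples 72 and 88 without adenoma replicates 1 and 2 and 281 without FP-high replicate 3. FP-high against FP-low samples gave 12, 136 and 6 without FP-high replicates 2, 3 and 4 and 1 without FP-low replicate 3 or 6.

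With array weights 1153, 868, 594 and 3 probe sets were called for adenomas against normal epithelium, FP-low and FP-high samples and for FP-high against FP-low samples. Of these calls 60%, 58.9% and 73.4% were higher in adenomas in the first 3 comparisons. Quantile normalisation called 4 in FP-high against FP-low samples, and leaving out normal arrays high in Xist, chosen after seeing the data, called 1. Testing only probe sets brighter than the median, without Cldn1, Cldn6 and Cldn8, called 78 for adenomas against FP-low samples. Fits of only the groups compared called 343 against FP-low and 46 against FP-high samples. Of the adenoma calls against FP-low samples 96.9% were higher, or 73.5% after quantile normalisation, and against FP-high samples 97.8% or 86.3%. The cause of these shifts was not tested.

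With the replicate number as a block, 67 probe sets were called for adenomas against normal epithelium, 37 against FP-low samples, 51 against FP-high samples and 0 for FP-high against FP-low samples, and 0 claudins in any. The block changed no claudin call. It turned Cldn3 against normal epithelium to 0.022, Cldn6 against FP-low to -0.091, Cldn12 against FP-high to 0.12, and in FP-high against FP-low samples Cldn8 to -0.020 and Cldn23 to -0.018.

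Other settings also turned directions. Quantile normalisation gave, for adenomas against FP-high samples, Cldn3 -0.0017, Cldn12 0.020 and Cldn23 -0.16, and for FP-high against FP-low samples Cldn1 -0.068, Cldn7 0.20, Cldn8 -0.17 and Cldn15 0.30. Equal spread gave Cldn12 0.071 and Cldn23 -0.0019 in the first of these, and Cldn1 -0.12, Cldn7 0.074, Cldn8 -0.22 and Cldn15 0.14 in the second. Array weights gave Cldn3 -0.28 in the first, and Cldn4 0.12, Cldn7 0.28, Cldn8 -0.016 and Cldn12 0.37 in the second.

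With each array left out, differences crossed zero as follows. Against FP-high samples Cldn3 ran from -0.34 to 0.29, Cldn7 from -1.21 to 0.10, Cldn8 from -0.026 to 0.20 and Cldn12 from -0.82 to 0.33. Against FP-low samples Cldn6 ran from -0.12 to 0.12. Against normal epithelium Cldn3 ran from -0.30 to 0.015, Cldn6 from -0.24 to 0.00058, Cldn8 from -0.0078 to 0.22 and Cldn12 from -0.60 to 0.063. In FP-high against FP-low samples Cldn1 ran from -0.071 to 0.28, Cldn3 from -0.555 to 0.077, Cldn4 from -0.23 to 0.11, Cldn7 from -0.71 to 0.30, Cldn8 from -0.037 to 0.10 and Cldn12 from -0.71 to 0.44.

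Each claudin had 1 probe set, so the alternative of a second probe set was not run. With 3 to 6 arrays a group, differences smaller than the intervals given could not be seen, and for the dim Cldn1, Cldn6 and Cldn8 the signal over background is not known.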
